A study of Homo sapiens with 8 samples.

Results

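The 31 genes described here encode enzymes of the mevalonate pathway, of cholesterol synthesis and of the isoprenoid branches that leave the same route. They were chosen by name, for their biochemical role, and all 31 were found among the 58735 genes of the deposited count table. The choice was made with earlier results of these data known, so shares set against all tested genes are description only. RNA was sequenced from SW480, a human colorectal cancer cell line, after lentiviral infection and puromycin selection. A group of 4 libraries came from cells carrying SPOCK1 with a FLAG tag, called SPOCK1 libraries 1 to 4. The other 4 came from cells carrying the vector alone, called control libraries 1 to 4. Both groups share the parental line, the virus and the antibiotic. SPOCK1, or testican-1, is a secreted proteoglycan, and the comparison asks which transcripts differ when it is overexpressed. The groups are named by the library titles alone. The labels do not say whether libraries of a group came from separate infections or cultures. Differences between the selected populations other than SPOCK1 cannot be told apart from its effect, and p-values measure only the spread between libraries.

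The pathway joins acetyl-CoA units into mevalonate and then into the isoprenoid farnesyl diphosphate. From there squalene and sterols are made, ending in cholesterol, while side branches make geranylgeranyl groups, the tail of ubiquinone, dolichol for protein glycosylation, and the lipid anchors of prenylated proteins. Many of the sterol genes are transcribed under SREBP factors, which are held in the endoplasmic reticulum by INSIG proteins when sterols are plentiful. NF-Y, a factor that binds CCAAT boxes, is a known partner of SREBP factors at such promoters.

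Libraries held 35643585 to 42812951 counts in the SPOCK1 group and 36390186 to 41343049 counts in the control group. SPOCK1 had 6719, 7828, 9712 and 8964 counts in SPOCK1 libraries 1 to 4, against 6, 0, 3 and 6 counts in control libraries 1 to 4. Of 8 epithelial markers, 7 had at least 10 counts over all libraries, and CDX1 had 2 counts. Their summed level was 14520 to 16210 CPM (counts scaled to a common library size) in SPOCK1 libraries and 12940 to 15840 CPM in controls. That sum is mostly KRT8 and KRT18. Of the 7 tested markers 4 had positive and 3 negative log2 fold changes, SPOCK1 over control, with a median of 0.0077. In CDH1 and VIL1, or 28.6% of the 7, every SPOCK1 library lay below every control, against 4.80% of all tested genes. CDH1, which encodes E-cadherin, averaged 11.2 ± 1.21 CPM in SPOCK1 libraries and 17.8 ± 1.29 CPM in controls (SD, n = 4 each, adjusted p = 0.00537). VIL1, which encodes villin, averaged 64.9 ± 7.68 CPM in SPOCK1 libraries and 78.1 ± 3.43 CPM in controls (SD, n = 4 each, adjusted p = 0.197). Of 13 markers of fibroblasts, leukocytes, endothelium and hepatocytes, DCN, LUM and CDH5 had 0 counts, and the summed level was 2.70 to 3.64 CPM in SPOCK1 libraries and 2.88 to 3.73 CPM in controls. The ribosomal RNA share counts genes annotated as ribosomal RNA, mitochondrial ribosomal RNA or ribosomal RNA pseudogenes. It was 0.612% ± 0.045 in SPOCK1 libraries and 0.715% ± 0.017 in controls (SD, n = 4 each), without overlap. The exact two-sided permutation p was 0.0286, the smallest that 4 against 4 can give, and 0.0572 adjusted over 2 measures. The other measure, the share of mitochondrially encoded genes, was 3.14% ± 0.25 in SPOCK1 libraries and 3.31% ± 0.29 in controls (SD, n = 4 each). Its exact two-sided permutation p was 0.457, also after adjustment. Mitochondrial ribosomal RNA enters both measures. The ribosomal RNA share moves with the groups in every result that follows, and its part in them was not tested.

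All 31 genes passed the filter on low counts. In SPOCK1 libraries 2 of the 31 fell, 0 rose and 29 did not pass the test (edgeR quasi-likelihood test, adjusted p under 0.05 over 15790 genes). The falls were TM7SF2, a sterol reductase, by 31.7%, and MVD, mevalonate diphosphate decarboxylase, by 23.0%. Falls were called in 0.798% of all tested genes and rises in 0.247%, so 2 of 31, or 6.45%, stands above the share of falls in the whole table. Of 19 alternative fits, TM7SF2 was called in 18 and MVD in 7. With RLE or upper-quartile factors for library size 1 of the 31 fell. The signs by arm are given as a description, since 29 of the 31 genes did not pass and no difference between arms was tested. All 12 genes of the squalene and sterol arm and 7 of 8 genes leading to farnesyl diphosphate had negative log2 fold changes, while 5 of 6 genes of the polyprenyl branch and 4 of 5 genes of protein prenylation had positive ones. Of all tested genes 50.8% were negative. The median log2 fold change was -0.26 in the sterol arm, -0.16 in the steps to farnesyl diphosphate, 0.20 in the polyprenyl branch and 0.04 in prenylation, against -0.0042 over all tested genes. In a bulk library less RNA per cell and fewer cells that hold the RNA cannot be told apart.

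**Figure D1:**
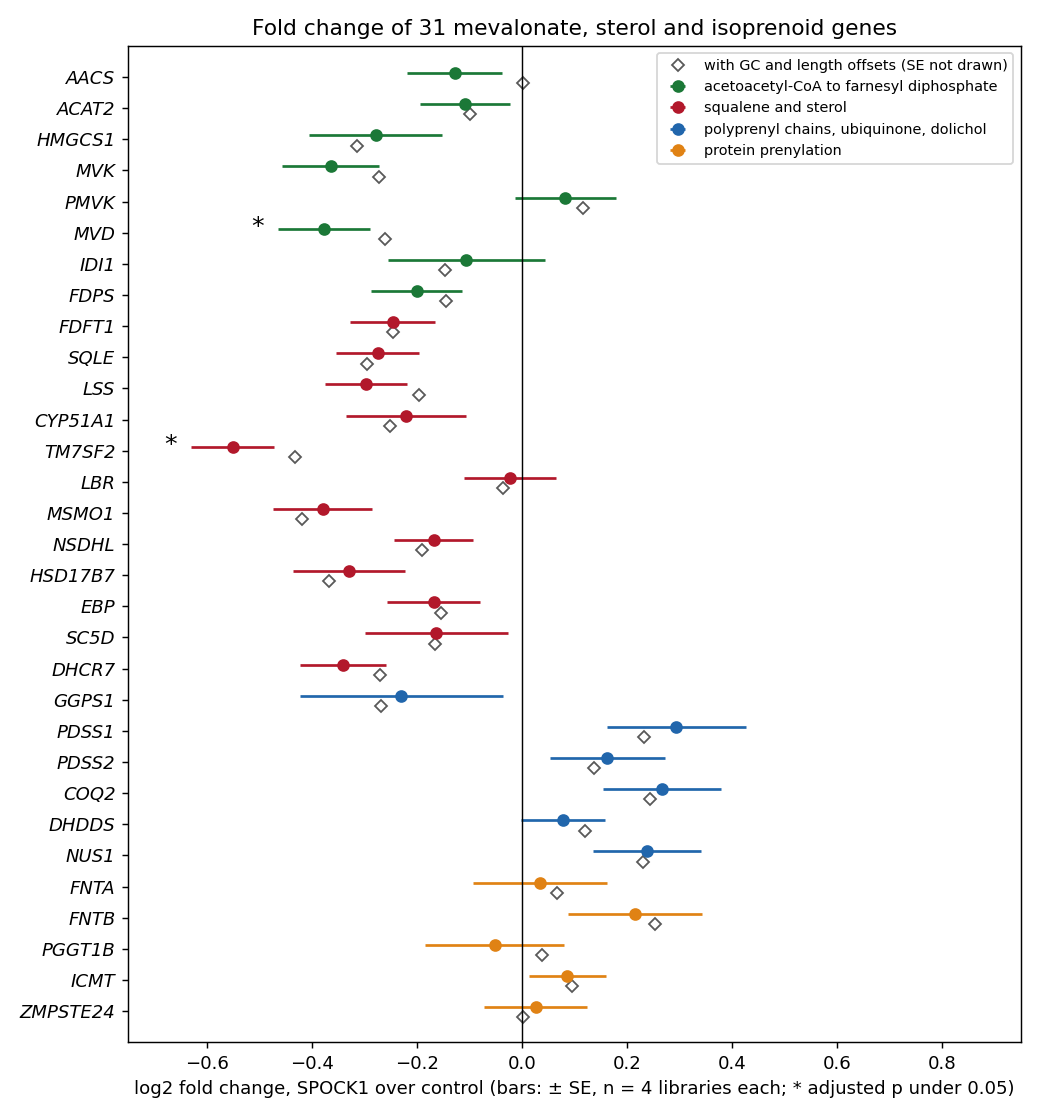
Log2 fold change, SPOCK1 over control, of the 31 genes in pathway order, with SE bars (n = 4 libraries each). Filled points are the test without correction and open diamonds the fit with GC and length offsets. All 12 red points of the squalene and sterol arm lie left of 0, and asterisks mark MVD and TM7SF2.

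The groups did not overlap in 10 of the 31 genes. Every SPOCK1 library lay below every control in 9 genes, or 29%, against 4.80% of all tested genes. These were MVK and MVD, and in the sterol arm SQLE, LSS, CYP51A1, TM7SF2, MSMO1, HSD17B7 and DHCR7. Every SPOCK1 library lay above every control in DHDDS alone, against 3.43% of all tested genes. At an unadjusted p under 0.05, 12 of the 31 were lower and 3 were higher, against 8.17% and 5.48% of all tested genes.

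**Figure D2:**
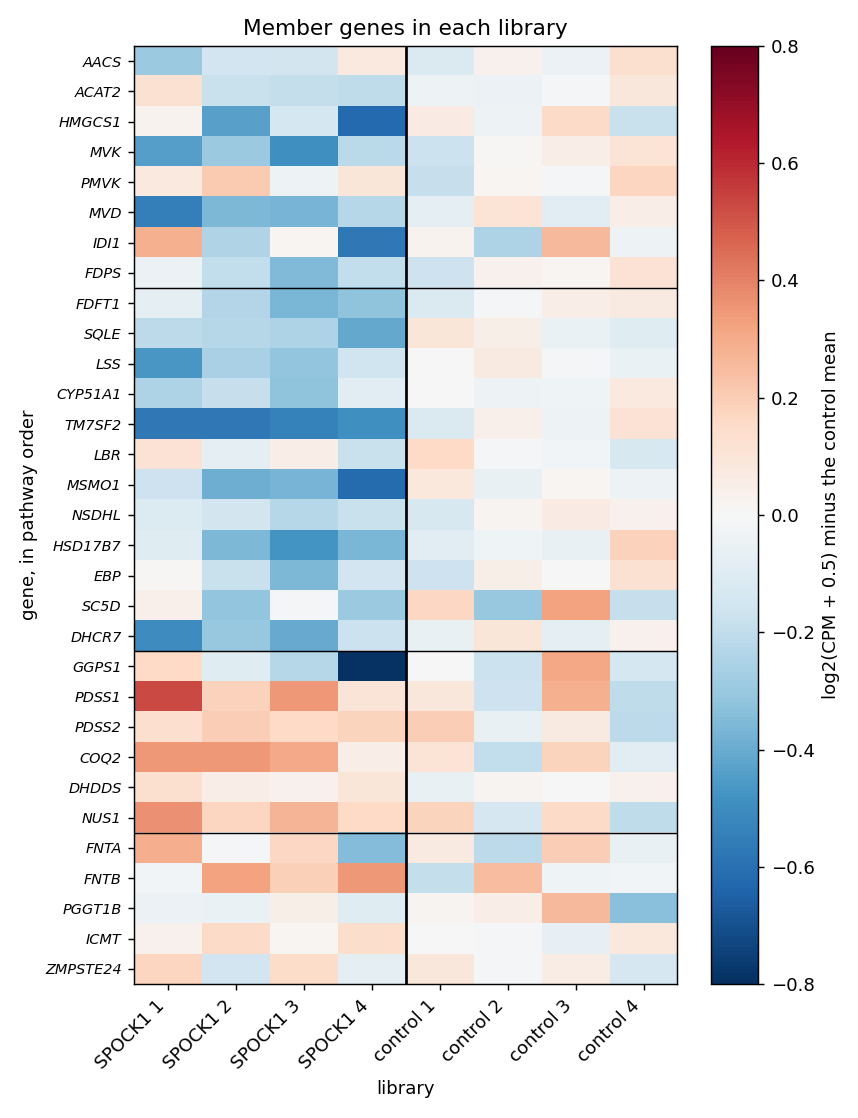
Log2(CPM + 0.5) minus the control mean for each gene (rows, in pathway order, lines between the 4 arms) in each library (columns, SPOCK1 left of control). The sterol rows are mostly blue in the 4 SPOCK1 columns. TM7SF2 is deep blue in all 4, and the deepest sterol cell is MSMO1 in SPOCK1 library 4. In the same columns the polyprenyl rows, below the sterol rows, are mostly red.

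Divided by exonic length, levels spread widely along the route. The highest were those of DHCR7, which makes cholesterol from 7-dehydrocholesterol, at 71.2 CPM per kilobase in SPOCK1 libraries and 90.2 in controls, and of the isomerase EBP, at 69.3 in SPOCK1 libraries and 77.9 in controls. NSDHL and FDFT1 followed, at 49.7 and 38.7 CPM per kilobase in SPOCK1 libraries and 55.8 and 45.9 in controls. The lowest were PGGT1B and GGPS1, at 0.985 and 1.38 CPM per kilobase in SPOCK1 libraries and 1.02 and 1.62 in controls. This order depends on the length listed for each gene, and which transcripts were in use was not examined. By CPM alone PGGT1B averaged 9.91 in SPOCK1 libraries, above CYP51A1 at 8.74 and GGPS1 at 5.25. CYP51A1 overlaps a pair of annotated genes on its own strand with 0 counts each, and FNTB likewise overlaps CHURC1-FNTB with 0 counts. The sources used here do not state how reads shared by such genes were assigned.

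The first arm runs from acetoacetyl-CoA to farnesyl diphosphate. MVD (ENSG00000167508, GRCh38 chromosome 16, 88651935 to 88663161, minus strand) makes isopentenyl diphosphate. It had 58.2, 66.5, 65.9 and 73.0 CPM in SPOCK1 libraries 1 to 4, against 81.2, 92.3, 80.3 and 88.5 CPM in control libraries 1 to 4. Every SPOCK1 library was below every control, by a log2 fold change (± SE) of -0.38 ± 0.09 and an adjusted p of 0.0465. That call was lost in 7 of 8 fits that left out a library, all but the fit without SPOCK1 library 4, with adjusted p of up to 0.178. With RLE factors its adjusted p was 0.0548, and with upper-quartile factors 0.0565.

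MVK, mevalonate kinase (chromosome 12, 109573255 to 109598117), described in full after its values were seen, had 45.03, 49.8, 43.3 and 52.5 CPM in SPOCK1 libraries, against 54.3, 61.5, 63.5 and 66.0 CPM in controls. The groups did not overlap, and its log2 fold change of -0.36 ± 0.09 missed the threshold (SE, adjusted p = 0.0747). MVK overlaps MMAB, a cobalamin adenosyltransferase gene on the opposite strand, whose log2 fold change was -0.25 ± 0.09 (adjusted p = 0.234). Their shared reads cannot be separated without the strand setting.

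HMGCS1, the synthase that makes HMG-CoA, had 39.6, 28.6, 35.2 and 25.1 CPM in SPOCK1 libraries, against 40.7, 37.8, 43.2 and 34.2 CPM in controls. The groups overlapped, since libraries 1 and 3 were the higher ones in both (log2 fold change -0.28 ± 0.13, SE, adjusted p = 0.346). FDPS, farnesyl diphosphate synthase, had 99.0, 89.4, 80.0 and 89.3 CPM in SPOCK1 libraries, against 91.4, 104.9, 103.4 and 111.0 CPM in controls. The groups overlapped through SPOCK1 library 1 and control library 1, with a log2 fold change (± SE) of -0.20 ± 0.09 and an adjusted p of 0.321. The remaining genes of this arm were AACS, which activates acetoacetate, the thiolase ACAT2, PMVK, which phosphorylates phosphomevalonate, and the isomerase IDI1. Their log2 fold changes were -0.13, -0.11, 0.08 and -0.11, and their adjusted p lay between 0.565 and 0.803. AACS spread over 68.6 to 88.8 CPM in SPOCK1 libraries and 77.6 to 92.1 CPM in controls. ACAT2 spread over 106.1 to 132.9 CPM in SPOCK1 libraries and 118.5 to 130.4 CPM in controls. All 4 of these genes overlapped between the groups. In position ACAT2 overlaps TCP1 on the opposite strand, with 106149 counts over all libraries against 35893 for ACAT2. The log2 fold change of AACS was 0.0016 with GC and length offsets. IDI1 spread from 25.9 to 47.3 CPM in SPOCK1 libraries and from 32.6 to 46.5 CPM in controls.

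The second arm starts at squalene. FDFT1, squalene synthase, had 226.3, 203.1, 184.9 and 191.0 CPM in SPOCK1 libraries, against 220.0, 237.4, 247.2 and 250.4 CPM in controls. SPOCK1 library 1 reached into the control range, and the log2 fold change of -0.25 ± 0.08 did not pass (SE, adjusted p = 0.184). SQLE, squalene epoxidase, had 100.3, 98.8, 97.5 and 87.4 CPM in SPOCK1 libraries, against 124.2, 119.9, 111.9 and 108.5 CPM in controls. The groups stood apart, with a log2 fold change (± SE) of -0.27 ± 0.08 and an adjusted p of 0.121.

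LSS, which closes the sterol rings to lanosterol, had 150.1, 173.2, 166.5 and 185.7 CPM in SPOCK1 libraries, against 206.4, 217.6, 205.8 and 199.5 CPM in controls. Again no SPOCK1 library reached the lowest control (log2 fold change -0.30 ± 0.08, SE, adjusted p = 0.0870). CYP51A1, the lanosterol demethylase, had 8.51, 8.90, 8.04 and 9.52 CPM in SPOCK1 libraries, against 10.2, 9.86, 9.92 and 10.8 CPM in controls. It also stood apart, at a low level and with a log2 fold change (± SE) of -0.22 ± 0.11 and an adjusted p of 0.418.

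**Figure D3:**
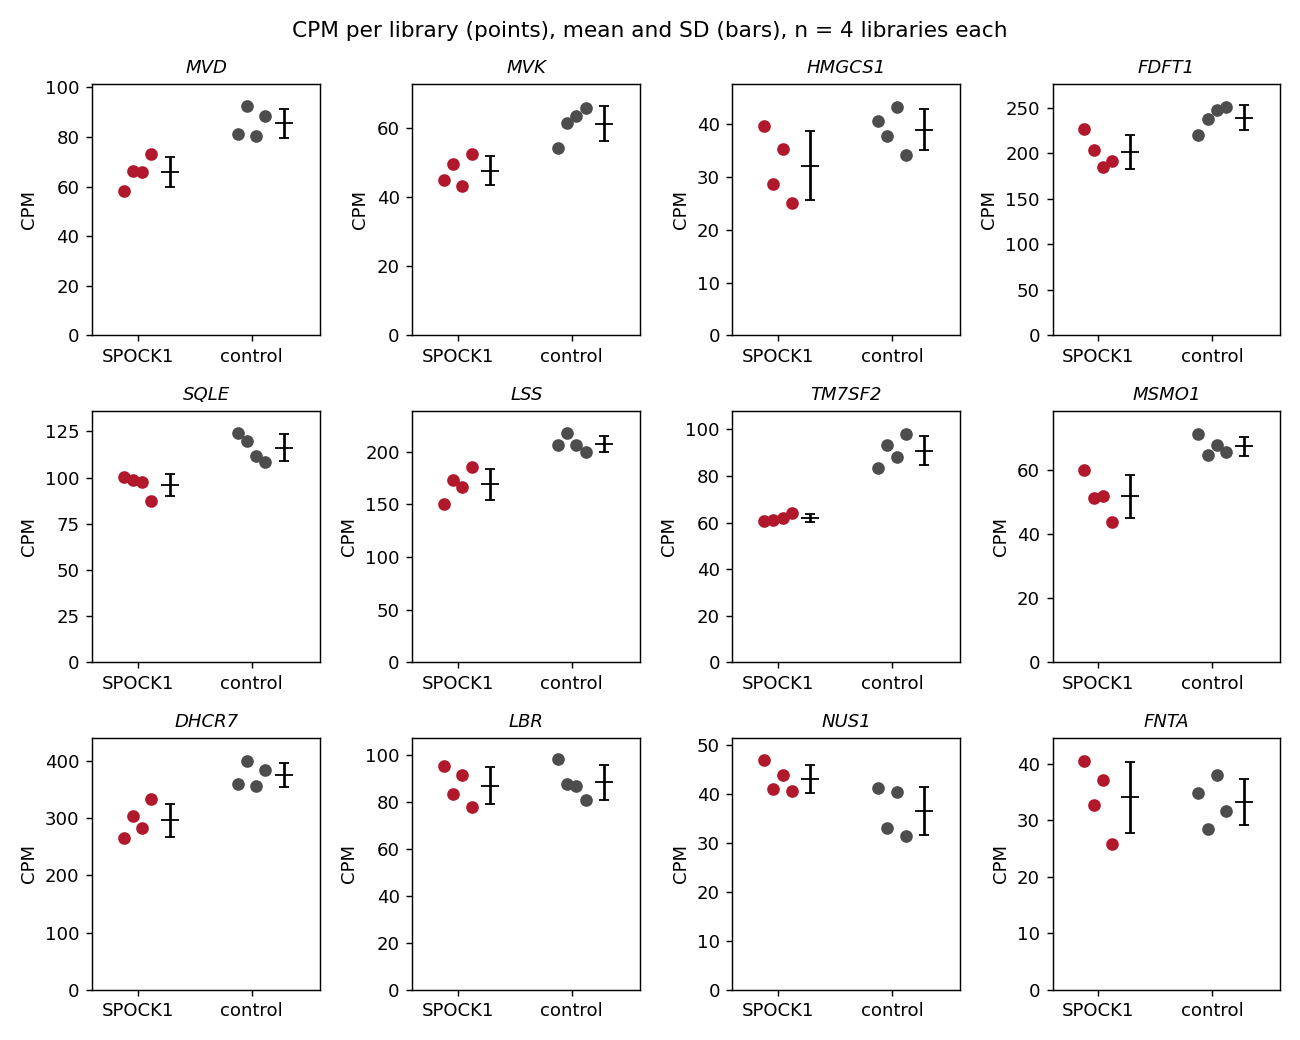
CPM of 12 of the 31 genes in each library (points; SPOCK1 left of control), with mean and SD (n = 4 each). In MVD, MVK, SQLE, LSS, TM7SF2, MSMO1 and DHCR7 no SPOCK1 point reaches the lowest control, while in LBR, HMGCS1, FDFT1, NUS1 and FNTA the groups overlap.

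The next step, reduction at carbon C14, can be carried by either of a pair of proteins, and the log2 fold changes of their genes differed. TM7SF2 (ENSG00000149809, chromosome 11, 65111845 to 65116384, plus strand) encodes the sterol reductase of the endoplasmic reticulum. It had 60.8, 60.9, 62.1 and 64.2 CPM in SPOCK1 libraries 1 to 4, against 83.6, 93.3, 88.3 and 98.1 CPM in control libraries 1 to 4. The SPOCK1 libraries lay close together and all below the controls, at a log2 fold change (± SE) of -0.55 ± 0.08 and an adjusted p of 0.00133. LBR, the lamin B receptor of the inner nuclear membrane, which has the same reductase activity, had 95.3, 83.2, 91.2 and 77.8 CPM in SPOCK1 libraries, against 98.2, 87.4, 86.8 and 80.5 CPM in controls. Its groups overlapped, with a log2 fold change of -0.02 (approximate 95% interval of -0.19 to 0.15, adjusted p = 0.942), and its sign turned positive in 3 alternatives.

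The ratio of the pair within a library does not depend on library size. It does depend on how each library recovers GC, since the GC content is 64.2% in TM7SF2 and 37.8% in LBR. With the GC and length offsets the log2 fold changes were -0.43 for TM7SF2 and -0.04 for LBR, against -0.55 and -0.02 without them. The log2 ratio of TM7SF2 to LBR counts was -0.65, -0.45, -0.56 and -0.28 in SPOCK1 libraries 1 to 4, against -0.23, 0.09, 0.02 and 0.29 in control libraries 1 to 4. No library of one group reached into the other, although SPOCK1 library 4 and control library 1 came close. The means differed by -0.53 on the log2 scale (exact two-sided permutation p = 0.0286, the smallest possible). Both genes belong to a list chosen with earlier results of these data known. As LBR hardly changed, the ratio mostly restates the fall of TM7SF2, and its p is not separate support for that fall. TM7SF2 also overlaps the end of VPS51, a gene of vesicle tethering on the same strand, which was examined after its values were seen. VPS51 averaged 255.1 ± 23.7 CPM in SPOCK1 libraries and 256.8 ± 21.8 CPM in controls (SD, n = 4 each, adjusted p = 0.974). The log2 ratio of TM7SF2 to VPS51 averaged -2.04 ± 0.10 in SPOCK1 libraries and -1.50 ± 0.05 in controls (SD, n = 4 each). This ratio is given without a test, since VPS51 was brought in with its level and the fall of TM7SF2 known.

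**Figure D4:**
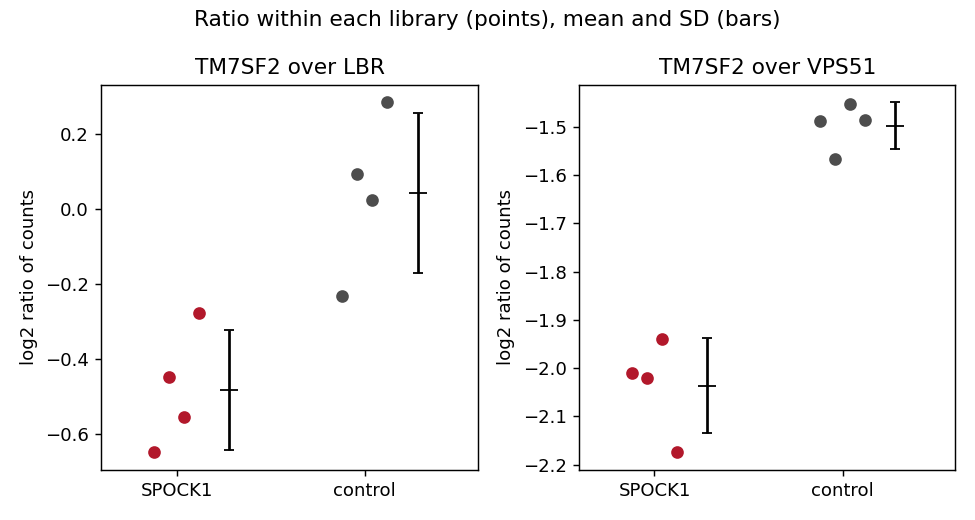
Log2 ratio of TM7SF2 counts to LBR counts (left) and to VPS51 counts (right) in each library, SPOCK1 left of control, with mean and SD (n = 4 each). Both panels keep the groups apart, by a wider gap against VPS51 than against LBR.

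Removal of the methyl groups at carbon C4 follows. MSMO1, the methylsterol monooxygenase, described in full after its values were seen, had 60.0, 51.2, 51.9 and 43.7 CPM in SPOCK1 libraries, against 71.1, 64.6, 67.8 and 65.5 CPM in controls. The groups did not overlap, and the log2 fold change of -0.38 ± 0.09 missed the threshold (SE, adjusted p = 0.0718). The dehydrogenase NSDHL and the reductase HSD17B7, which act with it, had log2 fold changes of -0.17 and -0.33, with adjusted p of 0.336 and 0.178. HSD17B7 spread over 20.7 to 27.1 CPM in SPOCK1 libraries and 27.2 to 33.0 CPM in controls, so its groups stood apart by a narrow margin, while those of NSDHL overlapped. The isomerase EBP and the desaturase SC5D had log2 fold changes of -0.17 and -0.16, with adjusted p of 0.427 and 0.640, and overlapped between the groups.

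DHCR7 (chromosome 11, 71428193 to 71452868) takes the last step to cholesterol. It had 264.8, 304.1, 283.1 and 333.0 CPM in SPOCK1 libraries, against 359.6, 401.0, 356.4 and 384.2 CPM in controls. No SPOCK1 library reached the lowest control, and the log2 fold change of -0.34 ± 0.08 fell just short of the threshold (SE, adjusted p = 0.0589). DHCR7 passed in 5 of 19 alternatives, such as a filter at a mean of 1 CPM (adjusted p = 0.0493).

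None of the 6 genes of the polyprenyl branch passed the test. GGPS1, which makes geranylgeranyl diphosphate, had 6.88, 5.67, 5.13 and 3.31 CPM in SPOCK1 libraries, against 6.11, 5.35, 7.68 and 5.49 CPM in controls. Its groups overlapped (log2 fold change -0.23 ± 0.19, SE, adjusted p = 0.642). In position GGPS1 overlaps ARID4B on the opposite strand, with 3076 counts over all libraries against 1736 for GGPS1. It also overlaps TBCE on its own strand, with 239 counts. PDSS1 and PDSS2, the subunits of the synthase for the ubiquinone tail, stood at log2 fold changes of 0.29 and 0.16, and COQ2, which joins the tail to the ring, at 0.27 (adjusted p = 0.342, 0.537 and 0.311). COQ2 spread over 19.6 to 24.1 CPM in SPOCK1 libraries and 16.3 to 21.3 CPM in controls, and PDSS1 over 15.3 to 20.6 CPM in SPOCK1 libraries and 12.2 to 17.3 CPM in controls. All 3 of these genes overlapped between the groups. In position PDSS1 overlaps ABI1 on the opposite strand, with 8419 counts over all libraries against 4838 for PDSS1.

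Dolichol synthesis needs a complex of DHDDS and NUS1. DHDDS had 45.7, 43.3, 42.8 and 44.6 CPM in SPOCK1 libraries, against 40.1, 42.5, 41.8 and 42.8 CPM in controls. The SPOCK1 libraries all lay above the controls, although the lowest SPOCK1 library and the highest control both came to 42.8 CPM after rounding (log2 fold change 0.08 ± 0.08, SE, adjusted p = 0.716). NUS1 had 46.9, 41.0, 44.0 and 40.6 CPM in SPOCK1 libraries, against 41.2, 33.0, 40.5 and 31.5 CPM in controls. Libraries 1 and 3 were the higher ones in both groups, and the groups overlapped by a single control, library 1 (log2 fold change 0.24 ± 0.10, SE, adjusted p = 0.323).

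None of the 5 enzymes that attach and process prenyl anchors passed the test. FNTA, the alpha subunit shared by farnesyl transferase and geranylgeranyl transferase I, had 40.5, 32.6, 37.2 and 25.8 CPM in SPOCK1 libraries, against 34.8, 28.5, 38.0 and 31.7 CPM in controls (log2 fold change 0.04 ± 0.13, SE, adjusted p = 0.935). FNTB, the beta subunit of farnesyl transferase, had 10.97, 14.1, 12.8 and 14.3 CPM in SPOCK1 libraries, against 9.72, 13.3, 10.9 and 11 CPM in controls (log2 fold change 0.22 ± 0.13, SE, adjusted p = 0.480). FNTB overlaps MAX on the opposite strand, with 15571 counts over all libraries against 3683 for FNTB. The groups overlapped in both subunits. PGGT1B, the beta subunit of geranylgeranyl transferase I, the protease ZMPSTE24 and the methyltransferase ICMT stood at log2 fold changes of -0.05, 0.03 and 0.09, with adjusted p of 0.903, 0.938 and 0.639. The approximate 95% intervals were -0.31 to 0.21 for PGGT1B, -0.17 to 0.22 for ZMPSTE24 and -0.06 to 0.23 for ICMT.

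The arms also differ in base composition. Median GC content of the longest annotated transcript was 54.4% in the steps to farnesyl diphosphate, 47.5% in the sterol arm, 43.9% in the polyprenyl branch and 38.9% in prenylation, against 49.4% over all tested genes. Libraries 1 and 3 both lay above libraries 2 and 4 of their group in 10 of the 17 genes below the median GC of tested genes in the SPOCK1 group and in 11 of the 17 in controls. The same order held in 0 of the 14 genes at or above that median in either group. In both groups at once it held in 8 of the 17, among them HMGCS1, IDI1, SC5D and FNTA, and not in LBR, PGGT1B, CYP51A1 or HSD17B7, which are also AT-rich. Over all tested genes it held in both groups in 20.8% of genes below the median GC and 0.963% of the others. The median log2 deviation of tested genes below the median GC from their own group's mean was 0.07, -0.01, 0.05 and -0.10 in SPOCK1 libraries 1 to 4, and 0.06, -0.06, 0.06 and -0.07 in control libraries 1 to 4. Once each library was corrected by offsets fitted on GC content and on exonic length, 8 of the 31 fell and 0 rose, or 25.8%, against 1.61% of tested genes that fell and 2.32% that rose. The 8 were HMGCS1, MVK, MVD, SQLE, LSS, TM7SF2, MSMO1 and DHCR7. Under the offsets the log2 fold change was -0.43 ± 0.06 for TM7SF2 (SE, adjusted p = 3.96e-04) and -0.42 ± 0.07 for MSMO1 (SE, adjusted p = 0.00252). The medians became -0.25 in the sterol arm and 0.18 in the polyprenyl branch. Over all tested genes the offsets gave 255 falls and 367 rises, against 126 falls and 39 rises without them, and the median of all genes shifted to 0.03.

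In libraries 1 and 3 of both groups alone, 0 of the 31 genes were called among 1 rise and 7 falls in the table. The log2 fold change of TM7SF2 was there -0.48 (adjusted p = 0.284). In libraries 2 and 4 alone 3 of the 31 fell, TM7SF2, MVD and MSMO1, and 0 rose, among 46 rises and 94 falls over all tested genes. The log2 fold change of MSMO1 was there -0.46 (adjusted p = 0.0134). By library, the median deviation of the sterol arm from the control mean was -0.13, -0.24, -0.34 and -0.24 on the log2 scale in SPOCK1 libraries 1 to 4, against -0.03, 0.01, -0.01 and 0.04 in control libraries 1 to 4. All SPOCK1 libraries lay below all controls by this measure, least in SPOCK1 library 1. That did not hold elsewhere. In the steps to farnesyl diphosphate SPOCK1 library 1, at -0.01, lay above control library 1, at -0.10. Over all 31 genes SPOCK1 library 1, at 0.010, lay within the control range of -0.021 to 0.013. The groups overlapped by this measure in prenylation as well. For the polyprenyl branch it was 0.25, 0.18, 0.22 and 0.10 in SPOCK1 libraries 1 to 4, against 0.10, -0.15, 0.17 and -0.17 in control libraries 1 to 4, and here control libraries 1 and 3 reached into the SPOCK1 range.

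Other genes around the route were read from lists chosen by role, also with earlier results of these data known. Of 22 genes of sterol regulation and transport 21 were tested, of which 1 fell, 0 rose and 20 did not pass. That is 4.76% falls, against 0.798% of all tested genes, and a median log2 fold change of -0.07. The fall was INSIG1, with 66.2, 64.5, 76.1 and 63.8 CPM in SPOCK1 libraries, against 101.2, 92.5, 101.8 and 99.6 CPM in controls, a wide gap at a log2 fold change (± SE) of -0.55 ± 0.08 and an adjusted p of 0.00204. SREBF2, which encodes the SREBP factor most tied to sterol genes, averaged 204.8 ± 24.3 CPM in SPOCK1 libraries and 260.9 ± 7.05 CPM in controls (SD, n = 4 each). It stood apart between the groups but missed the threshold (log2 fold change -0.35 ± 0.08, SE, adjusted p = 0.0625). SREBF1, its relative tied to fatty acid genes, and SCAP, which carries both to the Golgi, had log2 fold changes of -0.25 and 0.05, with adjusted p of 0.259 and 0.852. SCAP was at -0.05 without SPOCK1 library 4.

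Of 11 genes of acetyl-CoA supply and fatty acid synthesis 2 fell, 0 rose and 9 did not pass. That is 18.2% falls, against 0.798% of all tested genes, and a median log2 fold change of -0.11. ACSS2, which makes acetyl-CoA from acetate, averaged 214.2 ± 10.0 CPM in SPOCK1 libraries and 286.4 ± 22.5 CPM in controls (SD, n = 4 each), which was lower by a log2 value of -0.42 ± 0.08 (SE, adjusted p = 0.0104). The desaturase SCD averaged 667.4 ± 32.6 CPM in SPOCK1 libraries and 889.2 ± 65.6 CPM in controls (SD, n = 4 each), which was lower by a log2 value of -0.41 ± 0.08 (SE, adjusted p = 0.0105). Without SPOCK1 library 2 neither was called (adjusted p = 0.0520 for each), and ACSS2 was also lost without SPOCK1 library 3 or control library 2 (adjusted p = 0.0566 and 0.0515). Of 18 genes that use isoprenoids, such as the COQ genes, 0 rose and 0 fell by edgeR, 0 passed an unadjusted p under 0.05, and DESeq2 also called 0. Their median log2 fold change was 0.02.

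Promoter windows were read for what the arms share in sequence. Windows run from 250 bases before to 50 bases after the start sites listed by RefSeq on GRCh38.p14, and 27 of the 31 genes had at least 1. The core of a sterol regulatory element, TCACNCCAC, searched on both strands, was in 0 of the 27, against 1.39% of all genes with a window. This says only that these letters were not in these windows. Of the regulation list it was in SREBF2 alone. CCAAT, on either strand, was in the windows of 18 of the 27 genes, or 66.7%, against 39.7% of all genes. By arm it was in 5 of 7 genes leading to farnesyl diphosphate, 8 of 10 sterol genes, 4 of 6 polyprenyl genes and 1 of 4 prenylation genes. On the gene's own strand alone the order of the arms changed, with 57.1% of the genes leading to farnesyl diphosphate, 30.0% of sterol genes, 50.0% of polyprenyl genes and 25.0% of prenylation genes, against 23.3% of all genes. MVK and NSDHL had 5 copies in a window, MSMO1 4, and MVD, IDI1, FDPS and EBP 3. The groups overlapped in NSDHL, IDI1, FDPS and EBP and stood apart in the other 3. The 5-letter word is common, and a match is no proof of a bound site. CYP51A1 and LBR had none, and the groups stood apart in CYP51A1 and not in LBR.

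Shown are the windows of both sterol C14 reductases, of the other called gene, and of MVK and MSMO1, which carry the most copies among the genes with separated groups. Each runs 5′ to 3′ on the gene's own strand, with CCAAT, or ATTGG where the box lies on the other strand, in capitals.
TM7SF2, chr11:65111622-65111921, plus strand: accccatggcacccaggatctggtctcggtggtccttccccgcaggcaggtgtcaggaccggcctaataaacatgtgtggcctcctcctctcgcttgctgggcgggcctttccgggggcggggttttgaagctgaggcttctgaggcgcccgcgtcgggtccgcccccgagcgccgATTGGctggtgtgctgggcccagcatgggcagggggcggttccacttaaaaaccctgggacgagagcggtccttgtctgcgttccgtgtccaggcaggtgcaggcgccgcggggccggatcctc
LBR, chr1:225428772-225429071, minus strand: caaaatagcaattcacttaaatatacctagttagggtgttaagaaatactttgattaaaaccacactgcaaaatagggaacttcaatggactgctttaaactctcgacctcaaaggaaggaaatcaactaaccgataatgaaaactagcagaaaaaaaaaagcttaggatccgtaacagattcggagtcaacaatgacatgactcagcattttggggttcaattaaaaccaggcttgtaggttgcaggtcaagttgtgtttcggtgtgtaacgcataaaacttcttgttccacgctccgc
MVD, chr16:88663042-88663341, minus strand: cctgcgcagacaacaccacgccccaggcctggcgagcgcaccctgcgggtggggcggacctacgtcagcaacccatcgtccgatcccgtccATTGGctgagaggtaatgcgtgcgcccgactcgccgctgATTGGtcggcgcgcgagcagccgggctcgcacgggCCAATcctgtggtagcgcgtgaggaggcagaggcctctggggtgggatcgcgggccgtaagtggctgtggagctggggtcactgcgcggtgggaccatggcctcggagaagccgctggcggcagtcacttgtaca
MVK, chr12:109573544-109573843, plus strand: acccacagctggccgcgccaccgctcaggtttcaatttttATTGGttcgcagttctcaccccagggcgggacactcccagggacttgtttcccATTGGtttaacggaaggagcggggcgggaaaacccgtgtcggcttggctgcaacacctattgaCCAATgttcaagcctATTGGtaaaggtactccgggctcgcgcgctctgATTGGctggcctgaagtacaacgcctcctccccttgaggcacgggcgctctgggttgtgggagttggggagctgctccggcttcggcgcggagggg
MSMO1, chr4:165327419-165327718, plus strand: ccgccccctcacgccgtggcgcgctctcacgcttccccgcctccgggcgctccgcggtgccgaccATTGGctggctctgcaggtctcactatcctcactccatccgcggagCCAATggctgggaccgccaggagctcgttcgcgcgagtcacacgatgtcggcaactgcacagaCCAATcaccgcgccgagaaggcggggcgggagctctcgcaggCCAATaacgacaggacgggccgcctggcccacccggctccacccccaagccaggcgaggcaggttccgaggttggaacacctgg
TM7SF2, the gene with the steepest fold change of the 31, carries 1 box and LBR carries 0, while MVD, MVK and MSMO1 carry 3, 5 and 4. The window of MVK lies inside the annotated span of MMAB.

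**Figure D5:**
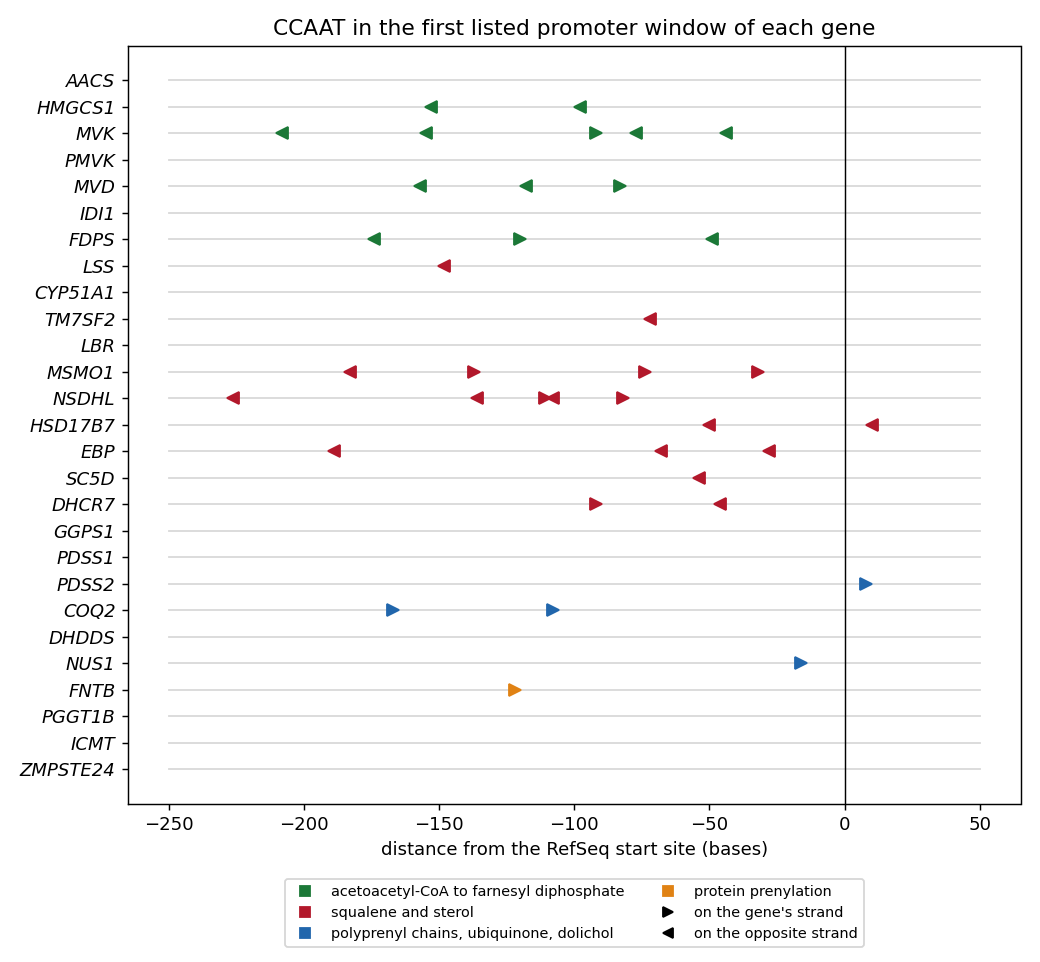
Position of CCAAT (right-pointing on the gene's strand, left-pointing on the other) from 250 bases before to 50 bases after the first listed start site of the 27 genes with a window. MVK and NSDHL show 5 boxes and MSMO1 4, and all but those of PDSS2 and 1 of HSD17B7 lie before the start site. IDI1 and GGPS1 show none because their boxes lie in other windows.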

How the data were processed

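RNA of 8 SW480 libraries, 4 with SPOCK1 and 4 with the vector, was sequenced, and the authors deposited 1 table of raw read counts per gene. Per the submitters' processing notes, HISAT2 2.0.5 and featureCounts 1.5.0-p3 were used; the build is not given in the sources used here, nor is strandedness or the rule for reads that fit several genes. Coordinates of all 58735 genes equal those of GENCODE release 29 on GRCh38. Genes were kept with edgeR's filter (count minimum 10, total minimum 15), scaled by TMM, and tested with edgeR 4.0.16 (R 4.3.3) by the quasi-likelihood test with Benjamini-Hochberg adjustment over 15790 genes. The SE of a log2 fold change was its absolute value divided by the square root of the F statistic of that test. Approximate 95% intervals used this SE with normal quantiles. CPM were computed from the counts with TMM factors. Offsets were natural splines (5 degrees of freedom) on GC content of the longest transcript and exonic length. Alternatives used DESeq2 1.42.0, limma 3.58.1, other factors and filters, and fewer libraries. The fits were tested on simulated counts. The 31 genes and the lists were chosen with earlier results of these data known. Values by library were given for called genes and for a named set of enzymes; MVK, MSMO1, VPS51 and MMAB were added after their values were seen. No pair of libraries of a group agreed within sampling noise (chi-square per degree of freedom 9.63 to 54.9), so none was treated as a library deposited again; this says nothing of separate cultures.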

Additional observations from a re-analysis of the deposited data

Results flagged for a closer look

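ACAT2, the cytosolic thiolase, whose gene overlaps TCP1, had 132.9 CPM in SPOCK1 library 1, away from the other SPOCK1 libraries at 106.1 to 108.1 CPM. COQ2 had 19.55 CPM in SPOCK1 library 4, below the other SPOCK1 libraries at 23.3 to 24.1 CPM. These were 2 of 62 groups of 4 libraries examined, and chance alone flags about 1 group in 20.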

How the results depend on the processing

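Of the 31 genes' values under alternatives, 536 kept their direction and side of the threshold, 21 newly passed, 13 no longer passed and 19 changed sign. TM7SF2 passed in 18 of 19 alternatives and MVD in 7. The number of the 31 that fell was 1 with RLE or upper-quartile factors, 6 with DESeq2, 5 with no filter, 8 with GC and length offsets, 0 in libraries 1 and 3 alone, and 1 to 5 on leaving out a library. Genes that rose and fell in the table numbered 105 and 273 with DESeq2, 120 and 279 with no filter, 367 and 255 with offsets, 1 and 7 in libraries 1 and 3 alone, and 24 to 66 and 63 to 171 on leaving out a library. Of the regulation list 2 fell with DESeq2, with no filter and with offsets, 0 in libraries 1 and 3 alone, and 1 to 2 on leaving out a library. Of the acetyl-CoA and fatty acid list 4 fell with DESeq2, 0 in libraries 1 and 3 alone, and 0 to 3 on leaving out a library.

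Replicate numbers gave no sign of pairing, since deviations of same-numbered libraries correlated by -0.07, 0.03, 0.03 and 0.08. Differently numbered libraries ran from -0.15 (SPOCK1 library 4 with control library 3) to 0.16 (SPOCK1 library 1 with control library 3). Whether libraries shared a batch was not tested. With the replicate block 1 of the 31 fell, and offsets with the block gave 3 falls among the 31 (SQLE, TM7SF2 and MSMO1), against 8 with offsets alone, and 96 rises in the table.

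The TM7SF2 to LBR difference was -0.62 to -0.44 on leaving out a library, with an exact two-sided permutation p of 0.0286 in 3 of the 8 and 0.0571 in 5. On the gene's own strand alone CCAAT was in 40.7% of the genes with a window, against 23.3% of all genes. Signs that changed were all near 0. They were AACS with offsets (0.0016) and with offsets and the block (0.0061), and PGGT1B with offsets (0.0393), with offsets and the block (0.0427), and in libraries 2 and 4 alone (0.0583). In libraries 1 and 3 alone IDI1 was at 0.0119 and LBR at 0.0138, and in libraries 2 and 4 alone FNTA was at -0.0441 and ZMPSTE24 at -0.0481. On leaving out a library the range was -0.158 to 0.0443 for PGGT1B, -0.259 to 0.0274 for IDI1, -0.0709 to 0.0334 for LBR, -0.0599 to 0.148 for FNTA, -0.0282 to 0.0812 for ZMPSTE24 and -0.0490 to 0.0988 for SCAP. The causes were not tested.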
